A study of Capra hircus with 6 samples.

Results

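The 10 genes described here encode the receptors for interferons and the inhibitors that switch cytokine receptors off again. They are the 4 interferon receptor chains IFNAR1, IFNAR2, IFNGR1 and IFNGR2, and 6 genes of the suppressor of cytokine signalling (SOCS) family, namely SOCS1, SOCS2, SOCS3, SOCS5, SOCS6 and CISH. They were taken by gene symbol, and all 10 were found among the 16262 rows with a symbol. Messenger RNA came from cultures of goat (Capra hircus) adipose mesenchymal stem cells, stromal cells that can turn into fat cells. Wild-type cells make up the control group of 3 libraries, and cells overexpressing TAZ, a coactivator in the Hippo pathway that WWTR1 encodes, make up the TAZ group of 3. Cells of both groups are labelled as under adipogenic differentiation, and the study asked how TAZ affects that process. TNF-α is named in its title and in none of the sample labels. Of the vector, what the control cells carried, the time in culture and the number of animals nothing is given in the sources used here.

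Type I interferons bind a receptor made of IFNAR1 and IFNAR2, whose cytoplasmic tails carry the kinases TYK2 and JAK1. Interferon gamma binds IFNGR1, which carries JAK1, and draws in IFNGR2, which carries JAK2. The kinases phosphorylate STAT transcription factors, which switch on antiviral genes and also SOCS genes. SOCS proteins hold an SH2 domain, which docks on phosphorylated receptors or kinases, and a SOCS box, which recruits a ubiquitin ligase, so they close a negative feedback loop. In fat tissue the same family also restrains growth hormone, leptin and insulin signalling.

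Fragment numbers were recovered from the steps of the deposited values and came to 33871397 to 37705644 for each library. The sources used here do not tell whether such a unit is a read or a read pair, and if it is a single read of a pair, the counting errors given below are too small. FPKM is a fragment number scaled to gene length and library total. WWTR1, the targeted gene, ranged from 84.2 to 118.1 FPKM in the TAZ libraries and from 29.9 to 35.9 FPKM in the controls, a ratio of 2.99, and its highest value was in TAZ replicate 2. Stromal markers were high in both groups, with a summed level of 24590 to 26060 FPKM over 11 genes in the controls against 23850 to 26130 in the TAZ libraries, and all 11 passed the filter. VIM and the collagen genes made up most of this sum, VIM with means of 12570 and 10280 FPKM. Single markers moved both ways: 4 of the 11 were called higher and 3 lower by limma, against 15.7% and 22.1% of all tested genes. Of 10 leukocyte markers in the tables, 2 passed the filter, and their summed level was 13.9 to 17.3 FPKM in the controls against 27.5 to 28.4 in the TAZ libraries, whose part in the results below was not tested. PTPRC, which encodes the pan-leukocyte antigen CD45, was at 0 in all 6 libraries, and the 2 that passed went opposite ways. CD14 rose from 9.58 ± 1.38 to 24.2 ± 0.421 FPKM and CD68 fell from 4.53 ± 0.437 to 2.86 ± 0.333 FPKM (SD, n = 3 libraries a group, limma adjusted p = 6.8e-07 and 0.00185), so the higher sum is that of CD14. Of 6 endothelial, 7 epithelial and 4 skeletal muscle markers none passed the filter, with summed levels of at most 0.533, 2.16 and 0.483 FPKM in any library. Of the 7 adipocyte markers only CIDEC passed, at 18.3 ± 1.31 FPKM in the controls and 17.8 ± 1.29 FPKM with TAZ, and it made up nearly all of their summed level of 17.4 to 19.8 FPKM and 16.9 to 19.6 FPKM. PPARG, ADIPOQ, PLIN1, LPL, LEP and CD36 were each at or below 0.461 FPKM in every library.

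Of the 10 genes, 9 reached 1 FPKM in at least 3 libraries and were tested, and CISH did not. In the TAZ libraries 5 of the 9 were higher, none was lower and 4 did not pass the test (limma, two-sided, Benjamini-Hochberg adjusted p under 0.05 over 10750 genes). At an unadjusted p under 0.05, 0 of the 9 were lower by limma and 0 by limma voom. The genes that rose were IFNAR2, IFNGR1, SOCS1, SOCS2 and SOCS3. Over all tested genes 37.9% were called in either direction, 15.7% as higher and 22.1% as lower. With the libraries scaled by their median ratio the split over all genes was 2030 higher and 1784 lower in place of 1693 and 2381, and the same number of the 10 genes, 5 higher and 0 lower, was called. The median log2 fold change of the 9 tested genes was 0.58, where that of all tested genes was -0.05. In bulk RNA a change in the share of cells that use a gene cannot be told apart from a change in RNA per cell.

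**Figure D1:**
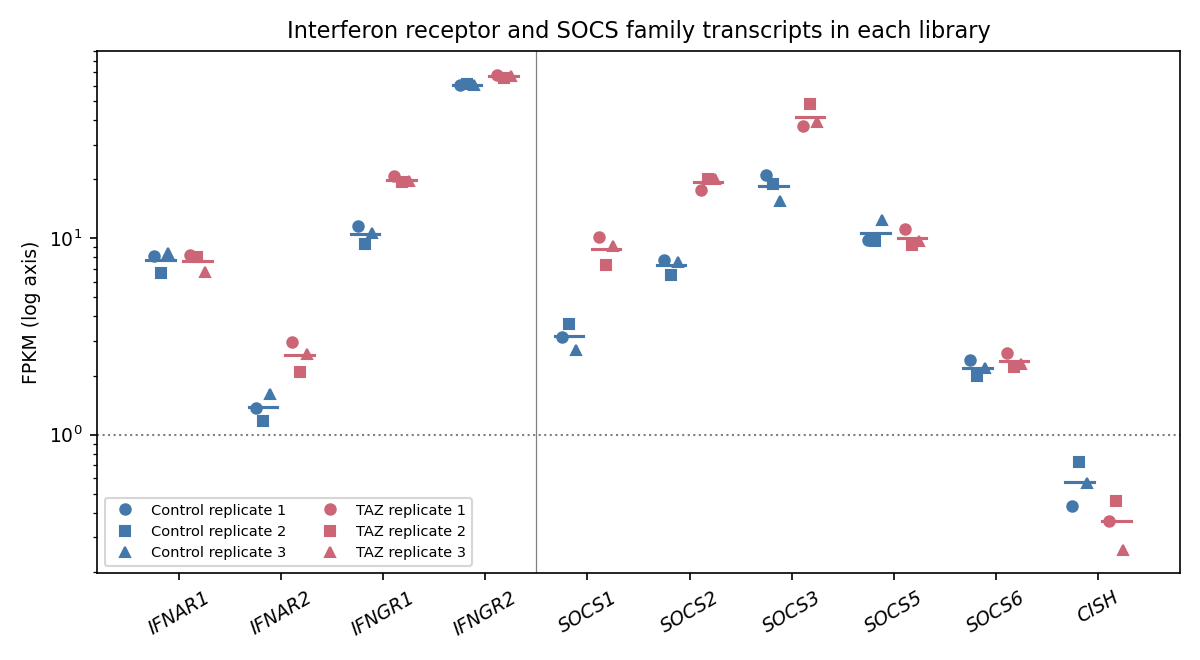
FPKM on a log axis of the 4 interferon receptor genes (left of the vertical line) and the 6 SOCS family genes in each control (blue) and TAZ (red) library, with the mean of each group as a bar and 1 FPKM as a dotted line. The TAZ points of IFNAR2, IFNGR1, IFNGR2, SOCS1, SOCS2 and SOCS3 all lie above the control points, and those of IFNAR1, SOCS5, SOCS6 and CISH overlap them.

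In each receptor pair the chain with the lower level rose, and the chain with the higher level did not pass the test. IFNAR2, the chain that binds type I interferon most tightly, measured 1.36, 1.17 and 1.61 FPKM in the controls, always in the order of replicates 1 to 3, and 2.98, 2.09 and 2.59 FPKM in the TAZ libraries. All TAZ values lay above all control values, and TAZ replicate 2 was the lowest of its group. The means were 1.38 ± 0.219 and 2.55 ± 0.445 FPKM (SD, n = 3), a ratio of 1.85. On the log2(FPKM + 1) scale, where changes of low genes come out too small, the log2 fold change was 0.58 (SE 0.12, limma adjusted p = 0.00167). On the fragments recovered from the low values, 134, 112 and 157 in the controls and 287, 223 and 270 in the TAZ libraries, it was 0.88 (limma voom adjusted p = 0.00209).

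IFNAR1, the other chain of the type I receptor, was at 8.12, 6.65 and 8.44 FPKM in the controls and at 8.25, 8.04 and 6.72 FPKM in the TAZ libraries. The groups overlapped, and the means of 7.73 ± 0.956 and 7.67 ± 0.832 FPKM differed by less than the spread within either group. The log2 fold change was -0.009, with a 95% confidence interval from -0.25 to 0.23 (limma adjusted p = 0.959). A change of IFNAR1 as large as that of IFNAR2 lies outside this interval.

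IFNGR1, which binds interferon gamma, was at 11.5, 9.35 and 10.7 FPKM in the controls and at 20.8, 19.3 and 19.6 FPKM in the TAZ libraries. The lowest TAZ value was well above the highest control value, and the TAZ values were close together. The means were 10.5 ± 1.07 and 19.9 ± 0.812 FPKM, a ratio of 1.89 (log2 fold change 0.86, SE 0.096, limma adjusted p = 1.26e-05). Among the 4 receptor genes it had the largest log2 fold change on the log2(FPKM + 1) scale. By limma voom on recovered fragments IFNAR2 came close to IFNGR1 (0.88 against 0.92). The ratios of means were also close (1.85 against 1.89).

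IFNGR2, the signalling partner of IFNGR1, had the highest level of all 10 genes. It stood at 60.1, 61.1 and 60.4 FPKM in the controls and at 68.3, 65.2 and 66.9 FPKM in the TAZ libraries. The groups did not overlap, and the ratio of the means was 1.10. IFNGR2 was thus 1 of 6 of the 9 tested genes with every TAZ value above every control value, a pattern that 19.7% of all tested genes showed. It did not pass the test, at a log2 fold change of 0.14 with a 95% confidence interval from -0.024 to 0.31 (limma adjusted p = 0.166). With no filter the interval was 0.033 to 0.25 (limma adjusted p = 0.0651). IFNGR2 passed in none of the alternatives, with log2 fold changes from 0.12 to 0.2. Its control values varied by 0.834% (SD over mean) where counting error alone gives 1.36% at 16224 control fragments.

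**Figure D2:**
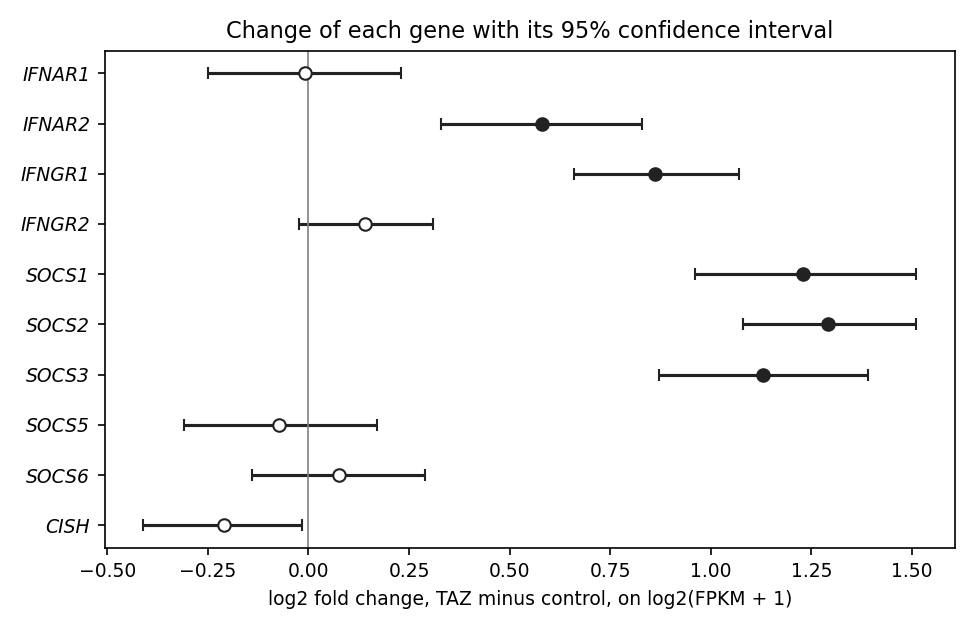
Log2 fold change (TAZ minus control, on log2(FPKM + 1)) of each gene with its 95% confidence interval, from limma over all tested genes; filled points passed the test and open points did not. The intervals of IFNAR2, IFNGR1, SOCS1, SOCS2 and SOCS3 lie between 0.33 and 1.51. CISH comes from the fit with no filter, and none of the intervals is adjusted for the number of genes.

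FPKM is per length, so the chains of a receptor can be set beside each other within a library. The ratio of IFNAR2 to IFNAR1 was 0.167, 0.176 and 0.190 in the controls and 0.361, 0.260 and 0.385 in the TAZ libraries. These ranges did not overlap, and the mean ratio went from 0.178 ± 0.0117 to 0.336 ± 0.0663. The ratio of IFNGR2 to IFNGR1 was 5.24, 6.53 and 5.62 in the controls and 3.28, 3.38 and 3.42 in the TAZ libraries. It was lower in every TAZ library, at a mean of 3.36 ± 0.0694 against 5.80 ± 0.663. In both receptors the levels of the chains therefore lay closer together in the TAZ libraries, though IFNAR1 and IFNGR2 still held the higher level in all 6. The ratios are given as descriptions with no test.

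**Figure D3:**
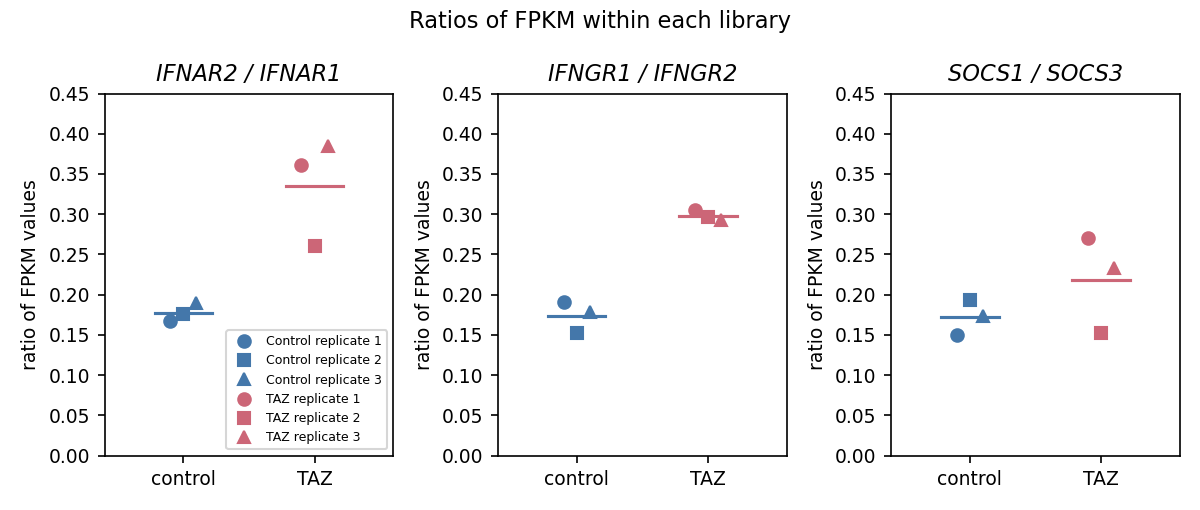
Ratios of FPKM within each library, control (blue) and TAZ (red), with group means as bars and the same axis from 0 in each panel; the receptor panels show the lower chain over the higher one. IFNGR1 over IFNGR2 lies at 0.153 to 0.191 in the controls against 0.293 to 0.305 in the TAZ libraries, whereas SOCS1 over SOCS3 overlaps between the groups.

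The summed level of the 4 receptor genes was 80.1 ± 1.66 FPKM in the controls and 96.9 ± 3.03 FPKM in the TAZ libraries. IFNGR2 held 75.5% ± 2.19 of it in the controls against 68.9% ± 0.884 in the TAZ libraries. The share of IFNGR1 was 13.1% ± 1.10 and 20.5% ± 0.193. IFNAR2 held the smallest share in both groups, 1.72% ± 0.244 and 2.63% ± 0.385.

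IFNGR2, IFNAR1, IL10RB and IFNAR2 neighbour each other in this order as protein-coding genes in the RefSeq goat assembly ARS1.2. IL10RB, which encodes a chain shared by the receptors for interleukin 10 and interferon lambda, was at 9.83, 8.98 and 10.9 FPKM in the controls and at 11.8, 11.6 and 12.8 FPKM in the TAZ libraries. Its values were all higher in the TAZ libraries, with a log2 fold change of 0.26 and a limma adjusted p = 0.0485 that was just under the threshold. The call was lost in 9 of 16 alternatives, among them voom and leaving out control replicate 1, control replicate 2 or any 1 of the TAZ libraries (adjusted p from 0.0186 to 0.184 over the 16). So the 4 neighbours had ratios of 1.10, 0.992, 1.22 and 1.85. IFNGR1 is not among these neighbours.

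Among the inhibitors SOCS1, SOCS2 and SOCS3 rose by similar amounts, and each had a larger log2 fold change than any of the 4 receptor genes. All 3 passed the test with a log2 fold change of at least 1, as 3.53% of all tested genes did in the higher direction. SOCS1 blocks Janus kinases directly and is a main brake on interferon signalling. It stood at 3.15, 3.67 and 2.70 FPKM in the controls and at 10.1, 7.30 and 9.13 FPKM in the TAZ libraries. All TAZ values were above all control values, and TAZ replicate 2 was again the lowest of its group. The means of 3.17 ± 0.488 and 8.85 ± 1.43 FPKM gave a ratio of 2.79 (log2 fold change 1.23, SE 0.13, limma adjusted p = 5.69e-06). By the recovered length of 418 bases, the shortest of the 10 genes, these FPKM values rest on few fragments. They were 137 in all controls and 400 in all TAZ libraries. That length is the smallest that gives whole fragment numbers, so a longer one with more fragments and a smaller counting error is possible. The spread of 15.4% among the controls was close to the 14.8% that counting error alone gives.

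SOCS2, known as the brake on growth hormone receptor signalling, had the highest log2 fold change of the 10 genes on the log2(FPKM + 1) scale. SOCS1 had the larger ratio of means, and also the larger log2 fold change by limma voom on recovered fragments (1.46 against 1.41), with a pseudocount of 0.1 (1.45 against 1.39), without control replicate 2 (1.32 against 1.22) and without TAZ replicate 2 (1.35 against 1.27). SOCS2 was at 7.77, 6.47 and 7.62 FPKM in the controls and at 17.7, 20.01 and 20.1 FPKM in the TAZ libraries. The groups were far apart compared with their spread, with means of 7.29 ± 0.712 and 19.3 ± 1.35 FPKM and a ratio of 2.65 (log2 fold change 1.29, SE 0.099, limma adjusted p = 3.57e-07). Of the 10750 tested genes 2.31% had a log2 fold change as high as that of SOCS2 or higher. The corresponding shares were 2.55% for SOCS1 and 2.96% for SOCS3, against 4.45% for IFNGR1 and 7.34% for IFNAR2. These shares are on the log2(FPKM + 1) scale, where changes of low genes such as IFNAR2 come out too small.

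SOCS3, the inhibitor that binds the gp130 chain of the interleukin 6 receptor family, was the most abundant inhibitor in every library. It stood at 21.0, 18.9 and 15.5 FPKM in the controls and at 37.4, 48.1 and 39.3 FPKM in the TAZ libraries. All TAZ values were above all control values, and TAZ replicate 2 was here the highest. The means were 18.5 ± 2.77 and 41.6 ± 5.73 FPKM, a ratio of 2.25 (log2 fold change 1.13, SE 0.12, limma adjusted p = 8.59e-06). The confidence intervals of the changes in SOCS1, SOCS2 and SOCS3 overlapped, at 0.96 to 1.51, 1.08 to 1.51 and 0.87 to 1.39, and differences between these changes were not tested.

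TAZ replicate 2 thus had the lowest SOCS1 and IFNAR2 and the highest SOCS3 and WWTR1 of its group. The ratio of SOCS1 to SOCS3 was 0.150, 0.194 and 0.174 in the controls and 0.270, 0.152 and 0.233 in the TAZ libraries, so it overlapped between the groups. Without TAZ replicate 2 the mean log2 difference in this ratio was 0.55 in place of 0.30. The part of WWTR1 in this pattern was not tested.

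SOCS5 and SOCS6, which are best known for acting on growth factor receptors, did not pass the test. SOCS5 was at 9.81, 9.69 and 12.4 FPKM in the controls and at 11.1, 9.29 and 9.71 FPKM in the TAZ libraries. The groups overlapped around means of 10.6 ± 1.52 and 10.02 ± 0.919 FPKM (log2 fold change -0.073, 95% confidence interval -0.31 to 0.17, limma adjusted p = 0.639). SOCS6 was at 2.41, 2.0 and 2.18 FPKM in the controls and at 2.60, 2.22 and 2.30 FPKM in the TAZ libraries. Its groups also overlapped (log2 fold change 0.077, 95% confidence interval -0.14 to 0.29, limma adjusted p = 0.571). The intervals of both genes end well below the values of SOCS1, SOCS2 and SOCS3, so a rise of that size in SOCS5 or SOCS6 lies outside them.

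CISH, the founding member of the family and an inhibitor of STAT5 signalling, was under 1 FPKM in every library. It stood at 0.432, 0.729 and 0.569 FPKM in the controls and at 0.363, 0.461 and 0.260 FPKM in the TAZ libraries. These values rest on 130 fragments over the controls and 86 over the TAZ libraries. The highest TAZ value lay above the lowest control value. With no filter on low genes its log2 fold change was -0.21 (unadjusted p = 0.0386, limma adjusted p = 0.111) in a fit that called 25.2% of all genes, 14.3% as lower. On recovered fragments with no filter it was -0.67, with a 95% confidence interval from -1.37 to 0.038 (limma voom adjusted p = 0.151). A fall of CISH to less than 0.5 times the control level therefore lies inside that interval, while a rise like that of SOCS1 does not.

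The order of levels among the 10 genes changed between the groups. In the controls it ran IFNGR2, SOCS3, SOCS5, IFNGR1, IFNAR1, SOCS2, SOCS1, SOCS6, IFNAR2 and CISH, and the ranges of SOCS5 and IFNGR1 and those of IFNAR1 and SOCS2 overlapped. In the TAZ libraries it ran IFNGR2, SOCS3, IFNGR1, SOCS2, SOCS5, SOCS1, IFNAR1, IFNAR2, SOCS6 and CISH. There the ranges of IFNGR1 and SOCS2, of SOCS5, SOCS1 and IFNAR1, each with the next, and of IFNAR2 and SOCS6 overlapped. SOCS1 lay below SOCS5 and IFNAR1 in every control library. The level of SOCS1 relative to other genes depends on the gene length behind its deposited values, which the sources used here do not give. The 418 bases recovered for it are only the smallest length that gives whole fragment numbers.

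The summed level of the 6 SOCS family genes was 44.6, 41.5 and 41.0 FPKM in the controls and 79.3, 87.4 and 80.8 FPKM in the TAZ libraries, a ratio of 1.95. SOCS3 held 43.5% ± 4.95 of it in the controls against 50.3% ± 4.19 in the TAZ libraries. The share of SOCS2 was 17.2% ± 1.51 and 23.4% ± 1.34, and that of SOCS1 7.50% ± 1.2 and 10.8% ± 2.25. SOCS5 held 25.2% ± 4.4 of the sum in the controls against 12.2% ± 1.66 in the TAZ libraries, a lower share at a level that did not pass the test. SOCS4 and SOCS7, the remaining genes of the family, were at 3.38 ± 0.424 and 3.11 ± 0.753 FPKM in the controls and at 3.4 ± 0.503 and 3.35 ± 0.826 FPKM in the TAZ libraries. Neither passed the test (limma adjusted p = 0.969 and 0.729), so 3 of the 7 tested genes of the family rose. Of all tested genes 15.7% were called higher.

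The genes most like SOCS1, SOCS2 and SOCS3 were sought by the root mean square difference in log2(FPKM + 1) over the 6 libraries, after each gene was set to its own control mean. Nearest to SOCS3 were NFKB2 at 0.054, which encodes an NF-kB subunit, DUSP15 at 0.071 and the cytokine gene IL11 at 0.097. NFKB2 stood at 22.7, 19.8 and 17.6 FPKM in the controls and at 42.6, 51.5 and 45.1 FPKM in the TAZ libraries, so it shared with SOCS3 a highest value in TAZ replicate 2 and a lowest in control replicate 3. Nearest to SOCS1 were ARNTL2 at 0.088, HEXDC at 0.089 and ID4 at 0.099, each with its lowest TAZ value in replicate 2. Nearest to SOCS2 were LUZP2 at 0.061, EPHB2 at 0.080 and JPH2 at 0.083. The measure shrinks changes of low genes: ARNTL2 was 5.12 times and EPHB2 9.14 times as high in the TAZ libraries, where SOCS1 and SOCS2 were 2.79 and 2.65 times as high. With controls of 0.416 ± 0.0901 and 0.21 ± 0.0286 FPKM, both passed the filter through the TAZ libraries alone. Because the genes were picked for likeness over these same 6 libraries, the shared library patterns follow from the selection. The names are a description only.

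Other genes of the pathway act between receptor and nucleus. Among 9 tested Janus kinases, STATs and IRF9, 6 rose, 0 fell and 3 did not pass, with a median log2 fold change of 0.55 against -0.05 over all tested genes. Of all tested genes 15.7% were called higher and 22.1% lower. STAT2 and IRF9, which act downstream of the type I receptor, were 2.88 and 3.23 times as high. JAK2, the kinase carried by IFNGR2, rose from 8.49 ± 1.46 to 18.6 ± 0.841 FPKM (log2 fold change 1.05, adjusted p = 7.78e-06). Of 10 interferon genes listed, IFNE was in the tables, at 0.0727 ± 0.0494 and 0.234 ± 0.186 FPKM with overlapping groups, and the other listed interferon genes were not analysed here.

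The other brakes on this pathway mostly did not pass the test, and neither did most of all tested genes. Of 12 tested, 2 rose, 1 fell and 9 did not pass (median log2 fold change 0.071). Over all 10750 tested genes 15.7% were called higher, 22.1% were called lower and 6676 genes did not pass. PIAS1, an inhibitor of STAT signalling, was 1.70 times as high (limma adjusted p = 0.00016), and PTPN1, a phosphatase that acts on JAK2 and TYK2, was 1.57 times as high (adjusted p = 0.000173). PIAS4 fell to 0.731 times the control level (adjusted p = 0.00642), and SH2B3 did not pass at 1.21 times (adjusted p = 0.0553). With median-ratio scaling 4 of the 12 rose in place of 2. USP18, which binds IFNAR2 and dampens it, was not analysed here.

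The ubiquitin ligase partners of the SOCS box did not rise with SOCS1, SOCS2 and SOCS3. Of 9 tested by limma, 0 rose, 4 fell and 5 did not pass, and 0 were higher at an unadjusted p under 0.05 (median log2 fold change -0.13). Over all tested genes 15.7% were called higher and 22.1% lower, so few rises would be seen among 9 genes at that share. TCEB2 and TCEB1, which encode elongins B and C that the SOCS box binds, both fell. TCEB2 went from 201.1 ± 29.7 to 121.1 ± 18.0 FPKM, and TCEB1 from 26.6 ± 0.997 to 18.5 ± 0.846 FPKM (limma adjusted p = 0.000443 and 0.000472). RNF7, the RING protein that works with cullin 5, fell to 0.757 times the control level, and NEDD8, the modifier that activates cullins, to 0.835 times (adjusted p = 0.00447 and 0.0436). The call of NEDD8 was lost in 10 of 16 alternatives, among them median-ratio scaling, voom and leaving out control replicate 1, control replicate 2, TAZ replicate 1 or TAZ replicate 2 (adjusted p from 0.0131 to 0.174 over the 16), which leaves 3 that fell. CUL5 itself did not pass, at 3.05 ± 0.522 and 3.16 ± 0.314 FPKM (adjusted p = 0.784).

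**Figure D4:**
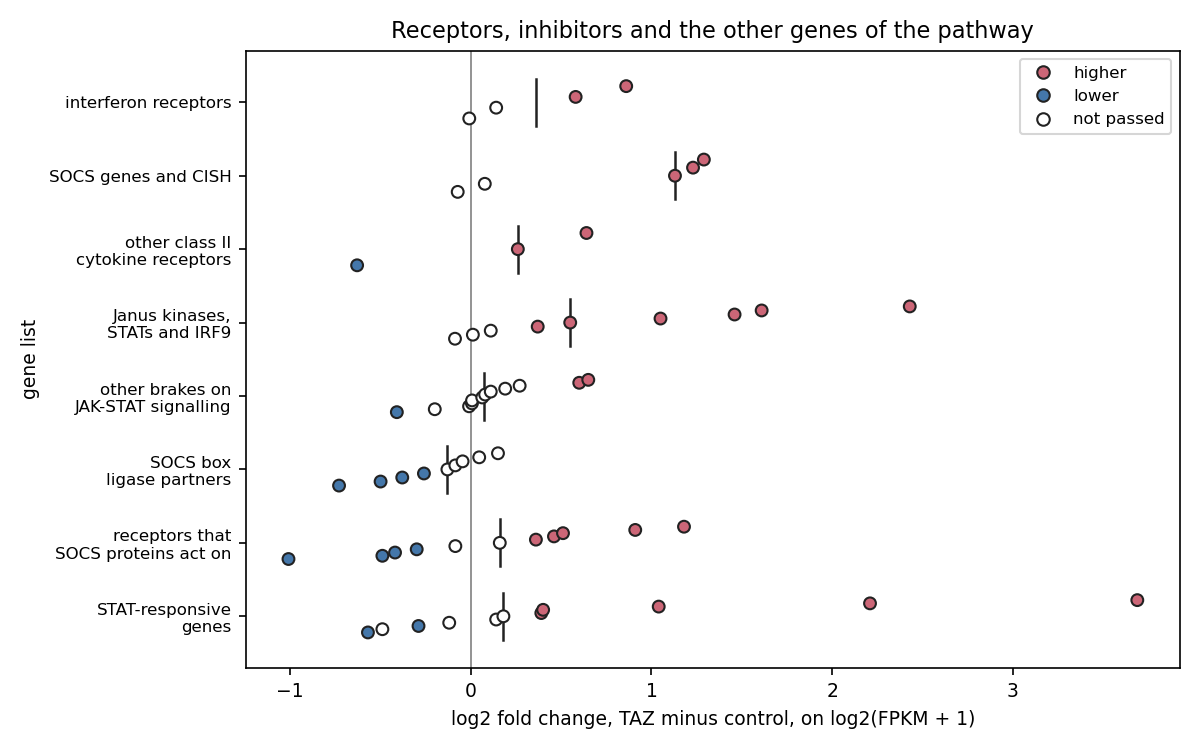
Log2 fold change (TAZ minus control, on log2(FPKM + 1)) of each tested gene by list, red where higher, blue where lower and white where the test was not passed, with the median of each list as a vertical bar. Genes are spread vertically only for legibility; 5 of 9 tested receptors and inhibitors were higher, 6 of 9 Janus kinases, STATs and IRF9 were higher, and 0 of 9 SOCS box ligase partners were.

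Receptors that SOCS proteins act on went both ways. Of 11 tested receptors and receptor substrates, 5 rose, 4 fell and 2 did not pass (median log2 fold change 0.16). The shares over all tested genes were 15.7% higher and 22.1% lower. OSMR, the oncostatin M receptor chain, was 2.61 times as high (limma adjusted p = 1.15e-05) and IL13RA1 1.93 times (adjusted p = 2.81e-05). IL11RA, a chain of the interleukin 11 receptor, fell to 0.458 times and IRS1, an insulin receptor substrate, to 0.684 times the control level (adjusted p = 4.13e-06 and 0.000871). IL6ST, which encodes the gp130 chain that SOCS3 binds, did not pass at 1.12 times (adjusted p = 0.311). Without TAZ replicate 2, 2 of the 11 genes fell in place of 4. GHR, 1 of the 4, was at 1.19 to 1.72 FPKM in the controls against 0.632 to 1.02 FPKM in the TAZ libraries. It thus entered the test through the controls, where it is high, and its fall is no independent support for the count. Among the other class II cytokine receptors, the structural relatives of the interferon receptors, 2 of 3 tested rose and 1 fell. F3, which encodes tissue factor, was 1.59 times as high, and IL10RA fell to 0.439 times the control level (adjusted p = 0.00215 and 0.000149). IL10RA reached 1 FPKM in the controls only, at 1.68 to 1.78 FPKM against 0.648 to 0.833 FPKM, so it entered the test through the group where it is high and its fall is no independent support for the count. The other that rose was IL10RB, whose call was lost in most alternatives as given above.

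Genes outside the family that respond to STAT factors also split. Of 11 tested, 5 rose, 2 fell and 4 did not pass (median log2 fold change 0.18), where 15.7% of all tested genes were called higher and 22.1% lower. ICAM1 and IRF1, which interferon gamma induces, were 17.7 and 4.98 times as high, and CEBPD and BCL3 were 2.06 and 1.34 times as high (limma adjusted p = 6.4e-12, 6.05e-09, 3.01e-06 and 0.00434). PIM1, a kinase gene induced by STAT3 and STAT5, fell to 0.664 times the control level (adjusted p = 0.00473). Of the 2 genes that fell, 1 was left with median-ratio scaling, without control replicate 1 or 2, or without TAZ replicate 2.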

How the data were processed

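RNA sequencing of 3 control and 3 TAZ libraries was examined. Per the labels' protocols, TRIzol was used for extraction and the VAHTS Universal V6 kit for library preparation. The submitters' processing notes name fastp, HISAT2 and HTSeq, with no versions. The authors deposited FPKM values, 1 table for each group, per the file headers. No genome build, strand setting or rule for shared reads is given in the sources used here. Coordinates are therefore left out, and overlapping genes are uncertain. All 16262 symbols, the 10 genes included, were found in the RefSeq table of ARS1.2, which was used for names and gene order. A date stood in place of the symbol in 23 of 16285 rows, which were left out.

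FPKM is a fragment number times a constant over gene length and library total. Totals and lengths were recovered from the steps of the values, with fragment numbers whole within 2e-05 for 99.99% of the rows above 0. For each gene the smallest length that gave whole fragment numbers was taken, so lengths and fragment numbers are lower bounds at these totals. The totals were 34967990, 33871397 and 34594066 in the controls and 34070962, 37705644 and 36926906 in the TAZ libraries, of which the tables hold 99.47% to 99.52%. At the median length of tested genes 1 FPKM stood for 103 fragments. Fragments are not independent molecules, so counting errors cover counting only, and the files do not say whether a unit is a read or a pair.

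Genes that reached 1 FPKM in 3 or more libraries (10750) were tested on log2(FPKM + 1) with limma 3.58.1 in R 4.3.3 (empirical Bayes with a mean-variance trend), two-sided, for the difference of TAZ and control, and p-values were adjusted by Benjamini-Hochberg across the 10750 genes. The labels do not say that replicates are separate cultures, so the spread behind the p-values is that of these libraries and may be technical. Fragment numbers of any 2 libraries differed beyond sampling noise (chi-square per degree of freedom at least 20.82). Tried as alternatives were median-ratio scaling, quantile normalization, pseudocounts of 0.1 and 0.5, no filter, a filter at a mean of 5 FPKM, no trend, the replicate block, limma voom on recovered fragments and leaving out each library. Voom with no filter, and the ratios without each library, were chosen after seeing the data. The genes, lists and tests were chosen with earlier results of these data known. Named genes were the 10 genes, WWTR1, from each list the 4 genes of lowest adjusted p, and the first in whichever direction held fewer calls, and the 3 genes most like each of the 10 that changed by at least 1 in log2 fold change. One gene that this rule names is not reported here. SOCS4, SOCS7, CUL5, IL6ST, GHR, CD14, CD68, CIDEC and the other adipocyte markers, PTPRC and IFNE were named after their values were seen.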

Additional observations from a re-analysis of the deposited data

How the results depend on the processing

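Each of the 5 calls (IFNAR2, IFNGR1, SOCS1, SOCS2 and SOCS3) held under every alternative in which the gene was tested. The number of these genes called higher was 4 with a mean of 5 FPKM or more, which removed IFNAR2 and SOCS6 from the test, and 5 in the other alternatives, and none was called lower in any. Their log2 fold changes ran from 0.49 to 0.88, 0.79 to 0.92, 1.14 to 1.46, 1.22 to 1.41 and 1.02 to 1.22 in that order, and the highest adjusted p was 0.0152, for IFNAR2 with no filter. IFNAR1, which did not pass in any, changed sign to 0.042 with median-ratio scaling, 0.025 without control replicate 1, 0.05 without control replicate 3 and 0.073 without TAZ replicate 3, and SOCS5 to 0.032 without control replicate 3. Without each library in turn IFNAR1 ran from -0.1 to 0.073 and SOCS5 from -0.14 to 0.032. Deviations from the group means correlated at -0.436, -0.112 and -0.403 between same-numbered libraries. Between differently numbered ones they ran from -0.376 to 0.691. The highest were 0.691 for control replicate 3 with TAZ replicate 1, 0.552 for control 2 with TAZ 3 and 0.534 for control 1 with TAZ 2. These correlations cannot decide whether or how the samples were paired. With the replicate block 3512 genes were called in place of 4074, and 5 of the 10 genes were still called. With median-ratio scaling 53.2% of called genes were higher in place of 41.6%. Among the other class II receptors 1 rose in place of 2 with no filter, the replicate block or voom, and 0 fell in place of 1 with a mean of 5 FPKM or without any 1 of the control libraries, where IL10RA was below the filter. The mean log2 difference in the ratio of IFNAR2 to IFNAR1 was 0.79 to 1.07 without each library, around 0.90, that of IFNGR2 to IFNGR1 -0.85 to -0.69, around -0.78, and that of SOCS1 to SOCS3 0.13 to 0.55. Depth limits CISH and SOCS1 most, with 130 and 137 control fragments.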
